A study of Mus musculus with 10 samples.

Results

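The core of the splicing machinery was followed in mouse B cells with and without LSD1, a histone demethylase encoded by Kdm1a. Membership was set by gene name, with earlier results of these data known when the names were chosen. Of the 9690 genes in the deposited table, 65 had a mouse symbol that begins with Srsf and a digit, Snrp, Hnrnp, Sf3a, Sf3b, Prpf or U2af. They comprised 10 SR protein genes, 20 hnRNP genes, 4 genes of U1 and U2 particle proteins, 7 Sm protein genes, 11 genes of SF3A, SF3B and U2AF subunits, and 13 PRPF genes. All 65 were above 0 in all 10 libraries, and all passed the floor of 0.3 in at least 2 libraries. A further 9 annotated mouse genes with such names, among them Hnrnpll, Snrpn, Srsf12 and U2af1l4, have no row and are not analysed here.

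Splicing removes introns from nuclear transcripts. The U1 particle marks the start of an intron, U2AF and then the U2 particle with its SF3A and SF3B subunits mark its end and branch site, and a tri-particle of U4, U5 and U6 carrying PRPF proteins completes the machine. Sm proteins form the ring on which most of these particles are built, while SR proteins mostly favour and hnRNP proteins often oppose the use of an exon. Lymphocytes are known for regulated splicing, as in the choice between membrane and secreted immunoglobulin and among the CD45 isoforms.

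The mice were female C57BL/6J, and unstimulated B cells of their spleens, 50000 per library, were sorted into 4 groups. There were 2 libraries of LSD1 knockout marginal zone B cells (KO MZB), 3 of wild-type marginal zone B cells (WT MZB), 3 of LSD1 knockout follicular B cells (KO FoB) and 2 of wild-type follicular B cells (WT FoB). Marginal zone B cells, which line the splenic white pulp and respond early to blood-borne antigen, were taken as B220+ CD93- GL7- CD23- CD21hi CD1d+ cells. Follicular B cells, which recirculate through the follicles, were taken as B220+ CD93- GL7- CD23+ CD21mid CD1d- cells, and both sorts left out cells with Thy1.1, F4/80 or CD11b. The labels give neither the age of the mice, nor how and in which cells the LSD1 gene was deleted, nor which libraries share an animal. The p-values therefore rest on the scatter among these 10 libraries, and part of it may be technical.

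Kdm1a itself was detected in every library. It stood at 5.37 and 5.94 molecules per cell in KO MZB, against 6.37, 8.36 and 7.90 in WT MZB, and at 2.04, 2.36 and 1.93 in KO FoB, against 5.58 and 4.34 in WT FoB. Per cell the log2 change was -0.39 ± 0.19 in MZB (SE, limma adjusted p = 0.118), which was called under 0 of the alternatives (0.0918 to 0.511), and -1.12 ± 0.19 in FoB (limma adjusted p = 4.3e-05). After rescaling for total mRNA, described next, it was -0.69 ± 0.06 in MZB (SE, limma adjusted p = 0.000463) and -1.10 ± 0.06 in FoB (limma adjusted p = 2.5e-05). Which part of Kdm1a the deletion removes is not given, so mRNA from outside it could still be counted.

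The table gives each gene as mRNA per cell, and total mRNA per cell differed widely: it was 105590 and 121071 in KO MZB, 74815 to 99800 in WT MZB, 43562 to 55704 in KO FoB, and 45237 and 56438 in WT FoB. Recovered whole reads summed to between 4161051 and 6711847 in a library, and the median gene had 184 to 319 of them. Since most genes were higher where total mRNA was, each comparison is given on the per-cell scale as deposited and on a rescaled one, in which each library was divided by a trimmed mean of its ratios to the mean library. The median change over all genes in WT MZB against WT FoB was 0.784 per cell and 0.003 after rescaling, on the log2 scale, and in KO MZB against WT MZB it was 0.324 and 0.018. A change is called where the limma adjusted p over all genes is under 0.05. In bulk samples, fewer cells of a type and less RNA per cell cannot be told apart.

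Marginal zone markers separated the sorts on both scales. Follicular markers did so after rescaling, but per cell KO MZB overlapped both FoB groups. The summed level of the 8 marginal zone markers was 732 to 792 molecules per cell in KO MZB and 595 to 753 in WT MZB, against 71.1 to 95.7 in KO FoB and 75.5 to 95.7 in WT FoB. After rescaling it was 450 to 475 in KO MZB, against 508 to 556 in WT MZB, and 111 to 125 in KO FoB, against 119 to 120 in WT FoB. The 6 follicular markers summed, after rescaling, to 138 to 145 in KO MZB and 108 to 120 in WT MZB, and to 358 to 373 in KO FoB and 353 to 360 in WT FoB. Per cell they summed to 213 to 256 in KO MZB, 122 to 176 in WT MZB, 224 to 278 in KO FoB and 224 to 287 in WT FoB. Of markers of other cells, 1 of 6 for T cells, 1 of 6 for macrophages and monocytes, 2 of 5 for dendritic cells, 1 of 4 for plasma cells, 0 of 4 for NK cells and 0 of 3 for erythroid cells had a row.

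Splicing factor mRNA made up 1.58% ± 0.03 of all mRNA in KO MZB (SD, n = 2), 1.74% ± 0.04 in WT MZB (n = 3), 1.55% ± 0.09 in KO FoB (n = 3) and 1.53% ± 0.01 in WT FoB (n = 2). The deposited values act roughly per length, since what 1 read was worth fell with exon length (Pearson r of the logs -0.83 over 9255 genes). For 66.3% of these genes, that worth times exon length lay within 25% of the median. The lengths used are not given, so levels set side by side between genes are approximate. The SR protein gene Srsf5 stood highest, at 140 ± 0.2 molecules per cell in KO MZB, 128 ± 13 in WT MZB, 50.4 ± 3.6 in KO FoB and 53.0 ± 6.5 in WT FoB. Next came Hnrnpa2b1, whose product packages and sorts RNA, and Hnrnph1, whose product binds G-rich elements, with 113 ± 14 and 103 ± 10 molecules per cell in WT MZB. These SDs overlap, so the order of the second and the third is not separated from the spread. At the low end, Prpf40b, a relative of a yeast U1 component, had 2.20 ± 0.14 molecules per cell in KO MZB, 1.97 ± 0.04 in WT MZB, 0.790 ± 0.13 in KO FoB and 0.754 ± 0.06 in WT FoB. Prpf4, of the tri-particle, and Srsf4 were the next lowest, at 3.25 ± 0.53 and 3.33 ± 0.26 in WT MZB, again within each other's spread.

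Levels within a family were uneven for SR and hnRNP genes and closer together for Sm and U1 and U2 particle genes. These spans depend on the length used for each gene, which is not given. In WT MZB the highest SR gene, Srsf5, stood 38.5 times above the lowest, Srsf4, and the hnRNP genes spanned 25.3-fold. By contrast the 7 Sm genes, whose products sit together in 1 ring, spanned 2.22-fold in KO MZB, 2.45-fold in WT MZB, 2.58-fold in KO FoB and 2.45-fold in WT FoB, with Snrpf lowest in all 4 groups. The 4 U1 and U2 particle genes spanned 1.39-fold in KO MZB, 1.62-fold in WT MZB, 1.19-fold in KO FoB and 1.40-fold in WT FoB. The median coefficient of variation of a member among libraries of a group, after rescaling, was 5.69% in KO MZB, 5.67% in WT MZB, 8.79% in KO FoB and 3.97% in WT FoB.

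WT MZB were set against WT FoB to ask how the splicing genes differ between the cell types when LSD1 is present. Per cell, 58 of the 65 genes were higher in WT MZB and 0 lower, where 84.2% of all genes were called higher and 1.67% lower. After rescaling they parted: 20 were higher and 17 lower, against 25% and 24.9% of all genes, or 49.9% in either direction. The median log2 change was -0.03 over the members and 0.003 over all genes, and libraries of the groups did not overlap for 25 members in each direction, where 35.3% of all genes did so higher and 34.8% lower. Per cell all 65 log2 changes were above 0 (0.08 to 1.74), so that a gene called lower here is lower relative to the mRNA of its library and not per cell. After rescaling, of the 10 SR genes, 6 were higher and 0 lower, with a median log2 change of 0.38, while 0 of the 7 Sm genes were higher and 3 lower (median -0.31), and 1 of the 11 SF3A, SF3B and U2AF genes was higher and 5 lower (median -0.23). hnRNP genes divided into 6 higher and 5 lower, PRPF genes into 5 and 3, and the U1 and U2 particle genes into 2 and 1. Without replicate 1 of WT FoB, 20 members in all were called (35.3% of all genes in that fit), and the lost ones include Srsf5, Hnrnpa2b1, Snrpd3, Snrpa1 and Prpf40b. The calls of Prpf40b and Snrpa1 were also lost without WT MZB replicate 1, and that of Snrpa1 without WT FoB replicate 2 or WT MZB replicate 2.

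**Figure D1:**
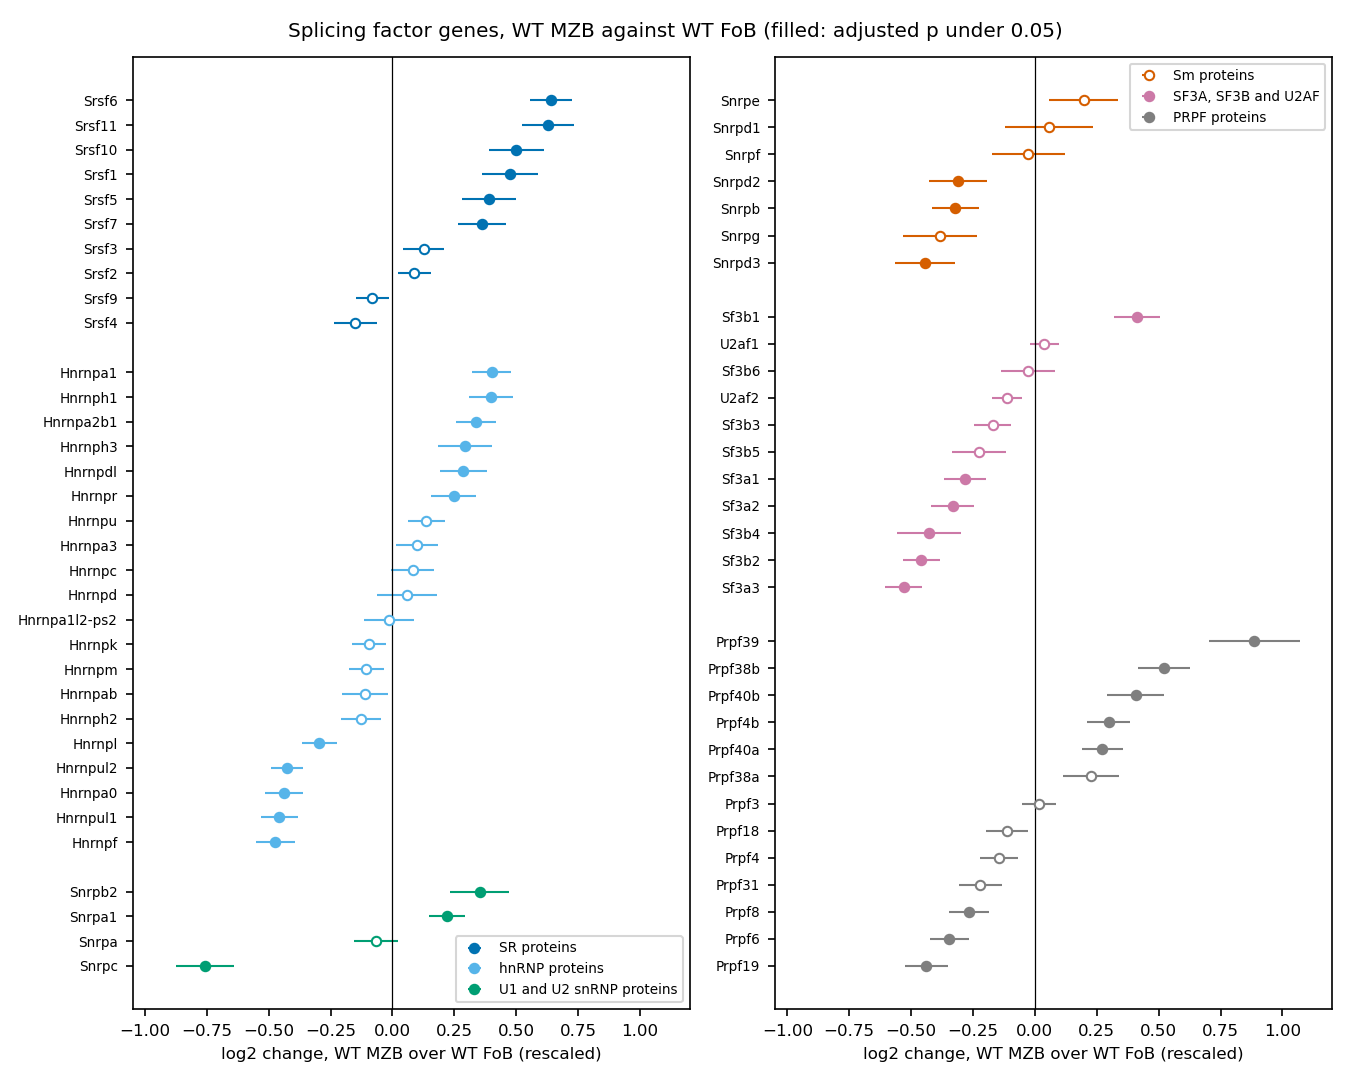
Log2 change of each of the 65 genes in WT MZB over WT FoB after rescaling (x axis), by family, with points for estimates and bars for SE; filled points passed limma's adjusted p of 0.05. Most SR genes lie right of 0, and most Sm, SF3A and SF3B genes left of it, with Prpf39 (0.89) and Snrpc (-0.76) at the ends; per cell all 65 changes were above 0.

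Among SR genes, whose products bind exons and recruit the machinery, Srsf6 had 37.8, 35.2 and 36.9 rescaled molecules per cell in WT MZB, against 22.7 and 24.2 in WT FoB. The groups did not overlap, and the log2 change was 0.64 ± 0.09 (SE, limma adjusted p = 0.000119). Srsf11, which associates with U1 and U2AF, had 20.4, 18.9 and 18.3 in WT MZB, against 12.0 and 12.6 in WT FoB, a log2 change of 0.63 ± 0.10 (limma adjusted p = 0.000532). Srsf10, a sequence-specific activator and, when dephosphorylated, a repressor, had 12.9, 11.6 and 11.7 in WT MZB, against 8.13 and 8.76 in WT FoB. Every WT MZB library was above every WT FoB library for this gene too, and its log2 change was 0.50 ± 0.11 (limma adjusted p = 0.00344). Srsf1, the founding member of the family, changed by 0.47 ± 0.11 (limma adjusted p = 0.0053), and Srsf5 and Srsf7 by 0.39 and 0.36. Srsf2, Srsf3, Srsf4 and Srsf9 were not called, with log2 changes of 0.09, 0.13, -0.15 and -0.08.

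Among PRPF genes the changes were of both signs. Prpf39, a U1 component in yeast and an alternative splicing factor in mammals, had 15.4, 13.2 and 13.5 rescaled molecules per cell in WT MZB, against 7.09 and 7.81 in WT FoB. Its log2 change, 0.89 ± 0.18 (limma adjusted p = 0.00217), was the largest of the members in this comparison. Prpf38b changed by 0.52 ± 0.11, Prpf40b by 0.41 ± 0.12 and Prpf4b, which encodes a kinase of splicing factors, by 0.30 ± 0.09, each with an adjusted p under the threshold. Of the lower ones, Prpf19, the ubiquitin ligase of the complex named for it, fell by 0.44 (SE 0.09), Prpf6, a bridge within the tri-particle, by 0.35 and Prpf8, the scaffold of the active site, by 0.27. The other PRPF genes, Prpf3, Prpf4, Prpf18, Prpf31 and Prpf38a, were not called, with log2 changes of -0.22 to 0.23.

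Among subunits that read the intron's end, Sf3a3 had 5.74, 6.44 and 5.70 rescaled molecules per cell in WT MZB, against 8.63 and 8.82 in WT FoB. The groups stood well apart, and the log2 change was -0.53 ± 0.07 (limma adjusted p = 0.000164). Sf3b2 fell by 0.46 (SE 0.07, limma adjusted p = 0.000482), and Sf3b4, Sf3a2 and Sf3a1 fell by 0.43, 0.33 and 0.28. Sf3b1, whose protein holds the branch site, went the other way: it had 37.2, 35.8 and 34.7 in WT MZB, against 26.8 and 26.9 in WT FoB, a log2 change of 0.41 ± 0.09 (limma adjusted p = 0.00377). The U2AF subunit genes U2af1 and U2af2, which recognise the intron's end and the stretch of pyrimidines before it, were not called, with log2 changes of 0.04 ± 0.06 and -0.11 ± 0.06.

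Snrpc, encoding the U1 subunit that contacts the intron's start, gave the largest fall among the members. It had 4.24, 4.54 and 4.37 rescaled molecules per cell in WT MZB, against 7.46 and 7.78 in WT FoB, and the log2 change was -0.76 ± 0.12 (limma adjusted p = 0.000347). Per cell the log2 change was 0.08 ± 0.20 (limma adjusted p = 0.693). The U1 subunit gene Snrpa was not called (-0.07 ± 0.09), and the U2 subunit genes Snrpb2 and Snrpa1 were higher by 0.35 and 0.22. Of the Sm genes, Snrpd3, Snrpb and Snrpd2 fell by 0.44, 0.32 and 0.31, and Snrpg, Snrpd1, Snrpe and Snrpf did not pass the test.

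hnRNP genes that were higher included Hnrnpa1 (0.40 ± 0.08), Hnrnph1 (0.40 ± 0.09) and Hnrnpa2b1 (0.34 ± 0.08). Those that were lower included Hnrnpf, a close relative of Hnrnph1, with 17.4, 20.5 and 17.9 rescaled molecules per cell in WT MZB, against 25.4 and 26.3 in WT FoB. Its log2 change was -0.47 ± 0.08 (limma adjusted p = 0.000549). Hnrnpul1, which encodes a relative of hnRNP U, fell by 0.46 (SE 0.07), and Hnrnpa0, which binds AU-rich mRNA, by 0.44 (SE 0.08). Hnrnpu, Hnrnpk and Hnrnpa3 did not pass, with log2 changes of 0.14, -0.09 and 0.10. Hnrnpa1l2-ps2 is by its name a pseudogene copy related to Hnrnpa1, so reads could be split between the pair, and its value (-0.01 ± 0.10) is uncertain.

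The promoters of the 3 genes with the largest rise and the 3 with the largest fall are shown, since the members differed in both directions between the cell types. They are RefSeq windows on GRCm38.p6, from 250 bases before to 50 after the start used for the window, written 5′ to 3′ on the gene's strand. For Snrpc and Srsf11 that start lies inside the annotated gene and not at its edge. Capitals mark a GC box (GGGCGG), an ETS core (CCGGAAG) or an E-box (CACGTG), on either strand.
Prpf39, chr12:65036084-65036383, plus strand: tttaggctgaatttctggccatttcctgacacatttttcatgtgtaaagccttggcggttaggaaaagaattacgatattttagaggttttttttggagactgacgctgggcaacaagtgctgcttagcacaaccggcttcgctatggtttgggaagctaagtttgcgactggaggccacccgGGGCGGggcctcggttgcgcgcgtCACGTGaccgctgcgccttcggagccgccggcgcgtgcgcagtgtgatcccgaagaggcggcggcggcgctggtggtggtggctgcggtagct
Srsf6, chr2:162931258-162931557, plus strand: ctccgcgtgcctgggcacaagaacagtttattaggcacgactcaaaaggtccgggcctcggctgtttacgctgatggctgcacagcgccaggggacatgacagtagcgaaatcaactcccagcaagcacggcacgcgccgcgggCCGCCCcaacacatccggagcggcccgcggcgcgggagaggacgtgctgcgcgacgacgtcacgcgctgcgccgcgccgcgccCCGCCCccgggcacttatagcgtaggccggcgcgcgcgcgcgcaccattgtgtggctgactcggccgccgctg
Srsf11, chr3:158036557-158036856, minus strand: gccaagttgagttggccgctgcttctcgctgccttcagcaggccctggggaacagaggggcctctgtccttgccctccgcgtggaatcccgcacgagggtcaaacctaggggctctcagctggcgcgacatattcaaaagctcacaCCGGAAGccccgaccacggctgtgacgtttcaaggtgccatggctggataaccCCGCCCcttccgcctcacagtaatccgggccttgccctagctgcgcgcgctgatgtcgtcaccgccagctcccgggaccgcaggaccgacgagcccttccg
Snrpc, chr17:27839837-27840136, plus strand: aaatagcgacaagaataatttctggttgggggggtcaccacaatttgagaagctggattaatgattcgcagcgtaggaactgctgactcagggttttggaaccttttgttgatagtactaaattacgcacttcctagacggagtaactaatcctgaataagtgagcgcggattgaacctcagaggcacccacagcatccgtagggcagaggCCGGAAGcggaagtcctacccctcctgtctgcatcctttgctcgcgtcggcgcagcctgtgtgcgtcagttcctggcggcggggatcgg
Sf3a3, chr4:124714611-124714910, plus strand: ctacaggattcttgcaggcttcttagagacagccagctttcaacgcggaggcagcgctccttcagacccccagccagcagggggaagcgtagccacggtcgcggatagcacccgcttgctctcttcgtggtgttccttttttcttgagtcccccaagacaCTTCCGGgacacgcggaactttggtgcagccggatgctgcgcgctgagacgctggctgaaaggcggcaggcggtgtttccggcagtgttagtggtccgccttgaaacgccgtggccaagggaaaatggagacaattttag
Hnrnpf, chr6:117900090-117900389, plus strand: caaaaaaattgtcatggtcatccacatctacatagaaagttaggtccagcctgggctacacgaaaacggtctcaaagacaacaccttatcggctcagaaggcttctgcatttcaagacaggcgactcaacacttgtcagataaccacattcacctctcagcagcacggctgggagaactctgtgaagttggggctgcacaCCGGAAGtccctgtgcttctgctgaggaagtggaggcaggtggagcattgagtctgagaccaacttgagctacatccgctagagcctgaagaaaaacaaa
Of the 65 genes, 57 had such a window. The GC box stood in 18 of the 19 windows of genes that were higher in WT MZB (94.7%) and in 8 of the 14 of genes that were lower (57.1%), against 66.7% of all member windows, 66.1% of windows of genes in the table and 35.9% of all 27025 mouse windows. The ETS core stood in 5 of the 19 (26.3%) and 8 of the 14 (57.1%), against 33.3% of member windows, 22% of windows in the table and 9.12% of all. The E-box stood in 2 of the 19 and 0 of the 14, against 14.0% of member windows, 11% of windows in the table and 7.24% of all. The CCAAT box (CCAAT) stood in 8 of the 19 and 7 of the 14, against 50.9%, 39.7% and 37.9%. The cAMP response element (TGACGTCA) stood in 0 of both sets, against 3.51%, 3.55% and 1.88%. The TATA box (TATAAA) also stood in 0 of both sets, against 12.3% of member windows (7 of 57), 6.53% of windows in the table and 14.2% of all. A match is a description of letters, not a site, and no test was made.

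KO MZB were set against WT MZB to ask what loss of LSD1 does in marginal zone B cells. Per cell, 2 of the 65 genes were higher and 0 lower, where 13.3% of all genes were called higher and 0.702% lower. Both are Sm genes, named after their values were seen. Snrpg had 16.4 and 17.5 molecules per cell in KO MZB, against 7.55, 14.0 and 11.6 in WT MZB, a log2 change of 0.64 (limma adjusted p = 0.0268). Snrpd2 had 14.99 and 14.64 in KO MZB, against 8.62, 11.2 and 9.65 in WT MZB, a log2 change of 0.59 (limma adjusted p = 0.0346). The libraries did not overlap for either gene, but neither call held without KO MZB replicate 1, KO MZB replicate 2 or WT MZB replicate 1. The Snrpd2 call was also lost without WT MZB replicate 3 or KO FoB replicate 1, and without WT MZB replicate 2 the count was 20, where 28.8% of all genes were called. At an unadjusted p under 0.05, 21 members were higher and 0 lower, which is 32.3% of members beside 38.7% of all genes.

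After rescaling, 0 members were higher and 2 lower in KO MZB, where 3.36% of all genes were called higher and 1.9% lower. Srsf11 had 14.8 and 13.6 rescaled molecules per cell in KO MZB, against 20.4, 18.9 and 18.3 in WT MZB, a log2 change of -0.42 ± 0.10 (SE, limma adjusted p = 0.0425). Snrpa1, encoding a U2 subunit, had 5.89 and 5.53 in KO MZB, against 7.11, 7.46 and 6.57 in WT MZB, a log2 change of -0.29 ± 0.07 (limma adjusted p = 0.0431). Neither gene's groups overlapped, yet the Srsf11 call was lost without any 1 of the 5 MZB libraries or without either WT FoB library, with an adjusted p of 0.0064 to 0.311 over the alternatives. The Snrpa1 call was lost without any 1 of the MZB libraries except WT MZB replicate 3 and without either WT FoB library, with 0.0299 to 0.315. WT FoB libraries bear on it because all groups share 1 estimate of the spread. Both falls are relative to the library's mRNA: per cell the log2 change was -0.10 ± 0.20 for Srsf11 and 0.03 ± 0.19 for Snrpa1 (limma adjusted p = 0.689 and 0.918).

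The members with the next smallest p were SR and PRPF genes. Prpf39 had 9.79 and 7.74 rescaled molecules per cell in KO MZB, against 15.4, 13.2 and 13.5 in WT MZB, the largest difference among members in MZB, at -0.67 ± 0.18 (limma adjusted p = 0.0595). Srsf10 had 9.29 and 8.54 in KO MZB, against 12.9, 11.6 and 11.7 in WT MZB, at -0.43 ± 0.11 (limma adjusted p = 0.0519). With limma voom on the recovered reads, 8 members were lower and 0 higher, among them Srsf1, Srsf6, Srsf10, Srsf11, Prpf4b, Prpf38b and Prpf39, where 5.56% of all genes were called lower and 5.79% higher. Per cell, the log2 changes of these 7 named genes ran from -0.35 for Prpf39 to 0.04 for Prpf4b and none was called. With only the MZB groups in the fit, the same 7 were the members called, all lower, where 9.34% of all genes were called. Snrpa1 was in neither set, and both calls, Srsf11 and Snrpa1, were lost in a fit without the mean-variance trend.

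By family, the rescaled median log2 change in KO MZB was -0.21 for the 10 SR genes, of which 9 were below 0, and 0.14 for the 7 Sm genes, of which 6 were above 0. It was 0.06 for SF3A, SF3B and U2AF genes, -0.07 for hnRNP genes, -0.08 for PRPF genes, -0.07 over the 65 members and 0.018 over all genes. Srsf4 was the 1 SR gene above 0 (0.19 ± 0.09). Per cell the medians were 0.12 for SR genes, of which 7 were above 0, 0.46 for Sm genes, 0.26 over the members and 0.324 over all genes. Groups did not overlap for 24 members that were lower and 11 that were higher, which is 36.9% and 16.9% of members, beside 21.4% and 24.2% of all genes. At an unadjusted p under 0.05, 16 members were lower and 4 higher, which is 30.8% of members beside 22.9% of all genes. The rescaled sum over SR genes was 229 and 251 molecules per cell in KO MZB, against 270 to 289 in WT MZB, and ran from 201 to 241 in KO FoB and from 211 to 227 in WT FoB.

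**Figure D2:**
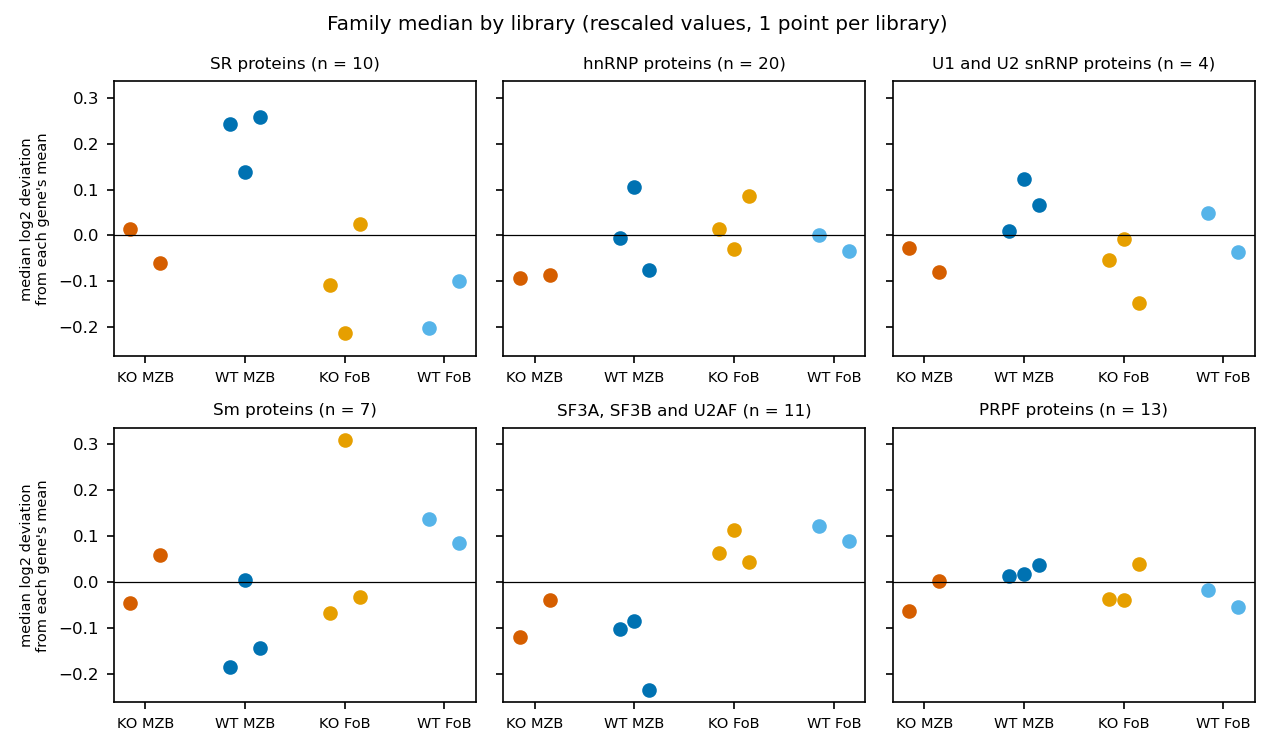
Median, over the genes of each family, of the log2 deviation from each gene's mean over all libraries after rescaling (y axis), with 1 point per library in the 4 groups. WT MZB libraries stand highest for SR genes (0.14 to 0.26), and KO FoB replicate 2 stands apart for Sm genes (0.31).

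Some other values also differed between KO MZB and WT MZB. The rescaled sum of the 8 marginal zone markers was 450 to 475 in KO MZB, against 508 to 556 in WT MZB, with no overlap. Of these, Cr2 (-0.39 ± 0.09, limma adjusted p = 0.0306) and S1pr3 (-0.42 ± 0.10, limma adjusted p = 0.0429) were lower after rescaling, and stood at -0.06 and -0.10 per cell without passing. The rescaled sum of the 6 follicular markers was 138 to 145 in KO MZB, against 108 to 120 in WT MZB, and the only macrophage and monocyte marker with a row, Ly6c2, had 1.92 and 2.90 rescaled molecules per cell in KO MZB, against 0.078 to 0.28 in WT MZB. The T cell marker Lck had 4.79 and 4.60 in KO MZB, against 2.71 to 3.37 in WT MZB, and the other 5 markers of either list have no row. The 2 dendritic cell markers with a row summed, after rescaling, to 12.67 and 15.02 in KO MZB, against 9.11 to 9.48 in WT MZB, and the plasma cell marker Xbp1 stood at 8.95 to 10.5 in KO MZB, against 8.49 to 9.89 in WT MZB. In FoB, Ly6c2 was also higher after rescaling, at 2.82 to 4.82 in KO FoB against 0.374 to 0.992 in WT FoB. Lck stood at 4.33 to 5.41 in KO FoB against 4.15 to 4.34 in WT FoB. The dendritic cell sum was 16.5 to 20.3 against 15.842 to 15.845, and Xbp1 was 9.88 to 10.7 against 9.51 to 9.53. The part of these markers in the splicing gene values was not tested. Exon length went with the change as well. Across genes, which are not independent, Spearman's rho of exon length with the rescaled change was -0.32 over the 65 members and -0.20 over 9255 genes with a length. In WT MZB against WT FoB it was 0.23 and 0.08, and in KO FoB against WT FoB 0.18 and 0.105. For the difference between the knockout effects it was -0.31 and -0.21. The part of exon length in the splicing gene values was not tested.

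**Figure D3:**
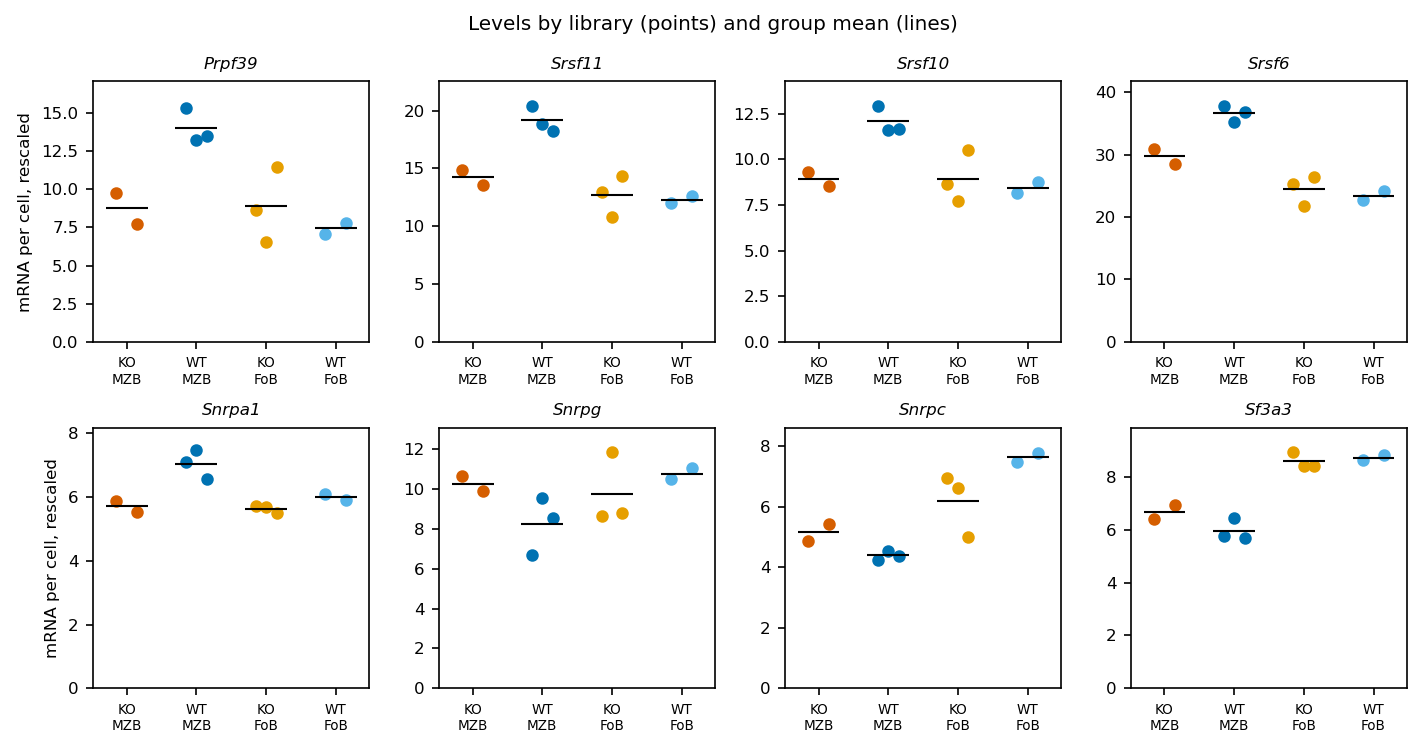
Rescaled mRNA per cell (y axis, from 0) of 8 members in each library (points) with the group mean (line). For Prpf39, Srsf11, Srsf10 and Srsf6 the WT MZB libraries lie above those of the other 3 groups, and for Sf3a3 every FoB library lies above every MZB library.

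KO FoB were set against WT FoB to ask the same of follicular cells. No splicing factor gene passed: 0 of 65 were called per cell, where 0.712% of all genes were, and 0 after rescaling, where 0.588% were. At an unadjusted p under 0.05 there were 0 members per cell, beside 3.85% of all genes, and 2 after rescaling (3.08% of members beside 14.6% of all genes). limma voom called 0, where 0.743% of all genes were called higher and 0.341% lower, with 2 at an unadjusted p. The smallest rescaled adjusted p was 0.218, for Sf3b5, a small SF3B subunit, with 5.67, 7.28 and 5.99 rescaled molecules per cell in KO FoB, against 4.53 and 5.08 in WT FoB. Its log2 change was 0.37 ± 0.11. Snrpc had 6.93, 6.61 and 4.99 in KO FoB, against 7.46 and 7.78 in WT FoB, at -0.30 ± 0.12, and U2af1 and U2af2 were each at -0.12 ± 0.06. The median SE of a member on the log2 scale was 0.09 after rescaling and 0.199 per cell, so small changes would not have passed on either scale. Srsf11, Snrpa1, Srsf10 and Prpf39 gave 0.04 ± 0.10, -0.08 ± 0.07, 0.07 ± 0.11 and 0.21 ± 0.18 in FoB.

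**Figure D4:**
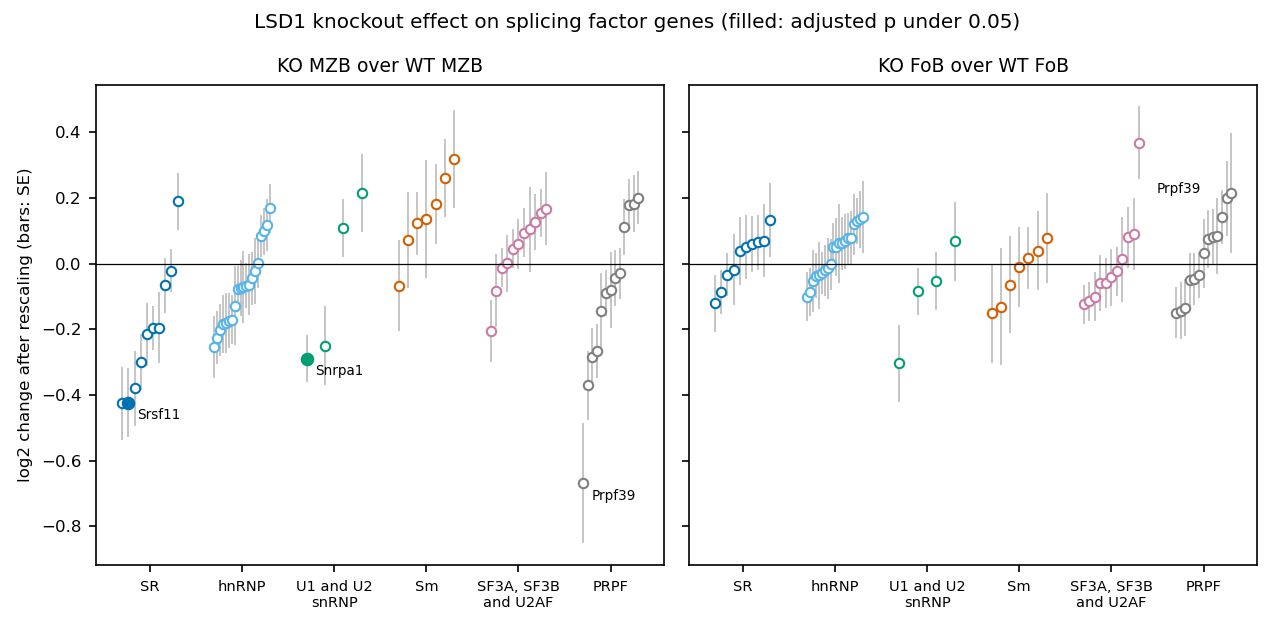
Log2 change after rescaling (y axis, bars SE) of the 65 genes by family in KO over WT, in MZB (left) and FoB (right); filled points passed limma's adjusted p of 0.05. Srsf11 and Snrpa1, at -0.42 and -0.29, are filled in MZB, and 0 genes in FoB; per cell they stood at -0.10 and 0.03.

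Whether the knockout effect differed between the cell types was tested as a difference of differences. On both scales 0 members were called, where 2.34% of all genes were per cell and 0.31% after rescaling. At an unadjusted p under 0.05 there were 12 members per cell and 15 after rescaling (5 higher and 10 lower in the MZB effect), which is 18.5% and 23.1% of members, beside 27.5% and 22.8% of all genes. Among the smallest rescaled adjusted p values were those of Prpf39 (-0.88 ± 0.26, limma adjusted p = 0.106), Srsf1 (-0.51 ± 0.16, 0.116) and Srsf10 (-0.49 ± 0.16, 0.118). limma voom called 5 lower, among them those 3 and Srsf11, where 4.21% of all genes were called lower and 2.01% higher. KO FoB replicate 2 bears on this: without it, 6 members were called after rescaling, all lower (Srsf1, Srsf6, Srsf10, Srsf11, Prpf38b and Prpf39), where 3.55% of all genes were called. Per cell, 3 were called without it, all higher (Snrpc, Snrpd1 and Snrpg, at 1.01, 0.88 and 1.06), where 6.57% of all genes were called. That library had a median deviation of -0.21 over SR genes and 0.31 over Sm genes, against -0.11 and 0.02 over SR genes, and -0.07 and -0.03 over Sm genes, in the other KO FoB libraries.

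The WT MZB libraries serve both in KO MZB against WT MZB and in WT MZB against WT FoB, so the values are not independent and no relation between them is given. Side by side, Prpf39 had -0.67 in the first and 0.89 in the second, Srsf11 -0.42 and 0.63, Srsf10 -0.43 and 0.50, Srsf6 -0.30 and 0.64, and Srsf1 -0.38 and 0.47. Snrpc had 0.22 and -0.76, and Sf3a3 0.15 and -0.53.

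Beyond the names used here, 124 other splicing genes were listed in 5 groups, and 123 were tested. In KO MZB after rescaling, 0 of them were higher and 2 lower: Smndc1, a factor needed for tri-particle joining, with 4.45 and 4.65 rescaled molecules per cell in KO MZB, against 6.19, 6.01 and 5.63 in WT MZB (log2 change -0.36 ± 0.08, limma adjusted p = 0.0295), and Zfp638, a nuclear RNA-binding zinc finger protein (-0.37 ± 0.09, limma adjusted p = 0.0444), where 3.36% of all genes were called higher and 1.9% lower. The Smndc1 call was lost without any 1 of the MZB libraries except WT MZB replicate 3 (adjusted p of 0.0129 to 0.163 over the alternatives). The Zfp638 call was lost without any 1 of the MZB libraries or either WT FoB library (0.00873 to 0.209). Per cell 2 were higher, where 13.3% of all genes were called higher, the helicase gene Dhx8 (0.55 ± 0.19, limma adjusted p = 0.043) and Slu7, of the second catalytic step (0.54 ± 0.19, limma adjusted p = 0.0463). Neither call held without KO MZB replicate 2, WT MZB replicate 1 or 3, or KO FoB replicate 1, and that of Slu7 was also lost without KO MZB replicate 1 (0.019 to 0.613 for Dhx8 and 0.0157 to 0.547 for Slu7). In KO FoB 0 passed on either scale. In WT MZB against WT FoB after rescaling, 38 were higher and 34 lower, where 25% and 24.9% of all genes were, and by list 15 of 23 SR-related proteins and SR kinases were higher and 4 lower, 16 of 32 other RNA-binding regulators were higher and 4 lower, and 1 of 35 branch site, helicase and NTC components was higher and 14 lower. Of 28 minor spliceosome and other small particle genes 6 were higher and 9 lower, and of 5 exon junction genes 0 and 3. Per cell, 112 of the 123 were higher and 0 lower, where 84.2% of all genes were called higher and 1.67% lower. Of the 35 branch site, helicase and NTC components, 31 were higher per cell and 0 lower. A listed gene called lower after rescaling is thus lower relative to the mRNA of its library and was not called lower per cell. The smallest rescaled p values belonged to the helicase genes Dhx38 (-0.63 ± 0.07) and Dhx8 (-0.67 ± 0.08), to Puf60, encoding a U2AF-related factor (-0.66 ± 0.08), and to Tial1, encoding a U-rich binding regulator (0.69 ± 0.09).

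Annotated models of 22 of the 65 genes overlap another gene, which for 11 has its own row. The kit marks strand, but whether counting used it is not given, so shared stretches may hold reads of either gene. Of the members described at length, Prpf39 shares 955 bases with Fkbp3 and Hnrnpf 2400 with a gene not in the table. Sf3a3 shares 966 bases with the pseudogene Gm12917 and 109 with Mir697. Srsf10 and Hnrnpr lie 0.681 and 0.205 Mb from Kdm1a on chromosome 4, with log2 changes of -0.43 and -0.18 in MZB and 0.07 and 0.12 in FoB, of which none passed.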

How the data were processed

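Poly(A)-selected RNA of 10 libraries was sequenced, and the authors deposited 1 signal value per gene and library, named mRNA per cell in the file headers, for 9690 genes by Entrez identifier. STAR and mm10 are named per the submitters' processing notes. No source used here gives the counter, its annotation and strand setting, or the conversion to molecules. Symbols came from RefSeq (GRCm38.p6) for 9681 genes. A gene's values are integer multiples of a step, from which reads were recovered in 100% of genes (deviations up to 0.00011 reads). Read recovery was run on simulated data, as was the rescaled limma fit of each knockout comparison and of WT MZB against WT FoB. The simulated noise was independent between genes, so it does not bear on errors shared within a library. Per-cell fits and the difference between knockout effects were not simulated.

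The test was limma 3.58.1 (R 4.3.3, two-sided) on log2(value + 0.3) over all 10 libraries, with 1 coefficient per group, a mean-variance trend and Benjamini-Hochberg adjustment over all genes, and a threshold of 0.05. Such a log2 change understates that of low genes. Rescaling trimmed 0.3 of ratios and 0.05 of levels, and its factors ran from 0.625 to 1.76. limma's prior degrees of freedom were 86.9 on the per-cell scale and 5 on the other. A library-wide error is shared by its genes, which can make per-cell p-values too small. The signal values are not counts, so limma voom on recovered reads was an alternative only, as were other pseudocounts and filters, fits on the compared groups, without the trend or with a replicate block, median ratio rescaling, and leaving out each library.

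The genes, the lists and the tests were chosen with earlier results of these data known. Named were, per comparison, up to 8 called members in each direction by rescaled change, the 4 with the smallest p where under 3 were called, the 3 highest and 3 lowest by level, and up to 4 called genes of the related lists, with other names added after their values were seen. A gene that this rule names is not reported here. Python 3.11.15, pandas 2.3.3 and matplotlib 3.10.9 made tables and plots.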

Additional observations from a re-analysis of the deposited data

How the results depend on the processing

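Of the single-gene results, 0 changed sign while called in either fit, 4904 kept their side of the threshold, 106 lost the call and 102 gained one. For a result called in neither fit, the sign was not compared. The share of all genes called in the same fit stands in brackets. For KO MZB against WT MZB per cell, where 2 members were called, a pseudocount of 1 gave 7 (21.4%) and leaving out 1 library gave 0 (2.78% without KO MZB replicate 2) to 20 (28.8% without WT MZB replicate 2). After rescaling, where 2 were called, fits on the MZB groups alone gave 7 (9.34%), limma voom 8 (11.4%), a fit without the trend 0 (4.49%), and leaving out 1 library 0 to 10 (7 without KO FoB replicate 2, 6.75%, and 10 without KO FoB replicate 3, 9.77%, all lower). For the difference between the knockout effects, where 0 were called on both scales, a pseudocount of 1 gave 1 per cell (4.34%), limma voom gave 5 after rescaling (6.22%), and leaving out 1 library gave 0 to 3 per cell (6.57% at 3) and 0 to 6 after rescaling (3.55% at 6). In WT MZB against WT FoB the main fit called 58 members per cell (84.2% of all genes higher and 1.67% lower) and 37 after rescaling (49.9%). When 1 library was left out, the count ran from 41 to 64 per cell and from 20 (35.3%) to 38 after rescaling. The shares of all genes at 41, 64 and 38 are not given here, so these counts do not set the members apart from other genes. In KO FoB against WT FoB the count was 0 throughout. The cause of these shifts was not tested.

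Groups share replicate numbers, and whether these numbers pair the libraries was not settled. The correlation of deviations ran from -0.19 to 0.187 over 13 pairs with the same number and from -0.187 to 0.149 over 24 with different numbers. Of 10 libraries, 5 correlated best with their own number. In groups of 2 libraries the deviations mirror each other, which forces values of both signs, so these ranges cannot exclude pairing. Between KO MZB and WT MZB, same-number pairs had 0.187 and 0.149, and different-number pairs -0.187, -0.149, -0.01 and 0.01. With the replicate number as a block, 0 members were called in KO MZB against WT MZB on either scale (5.45% of all genes per cell and 2.73% after rescaling). With 2 or 3 libraries a group and a median SE of 0.09 after rescaling, a change had to be several times that size to pass.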
